A study of Rattus norvegicus with 32 samples.

Results

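Liver sinusoidal endothelial cells (LSECs) line the smallest vessels of the liver, and their messages of the TGF-beta system were measured by RNA sequencing in 32 rat libraries. The genes described are the ligands Tgfb1, Tgfb2 and Tgfb3, the receptors Tgfbr1, Tgfbr2 and Tgfbr3, the latent TGF-beta binding proteins Ltbp1 and Ltbp2, the matrix protein Tgfbi and the ligand activator Thbs1. They were chosen by gene symbol, and each of the 10 symbols matched 1 of the 32623 genes in the count files.

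TGF-beta is secreted in a latent form, held by its own propeptide, and latent TGF-beta binding proteins fix this complex to the extracellular matrix until integrins, proteases or thrombospondin release the ligand. Free ligand is bound by the type II receptor, which recruits and phosphorylates the type I receptor, and the signal passes to the nucleus through Smad2, Smad3 and Smad4. In the liver, TGF-beta is best known for driving hepatic stellate cells to lay down scar matrix, and LSECs are among its sources.

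Male Wistar Han rats inhaled carbon tetrachloride (CCl4), a hepatotoxin, and phenobarbital was given in the drinking water of the CCl4 model. The acute group had 2 weeks of CCl4 (5 rats, replicates 1, 2, 3, 4 and 8), the fibrosis group 6 weeks (5 rats, replicates 12, 13, 15, 16 and 17) and the cirrhosis group 12 to 14 weeks (6 rats), and 6 healthy rats had no CCl4. A second experiment used thioacetamide (TAA), another hepatotoxin, and its rats are labelled control (5 libraries) and TAA control (5 libraries, replicates 10, 12, 13, 14 and 15). Those labels do not settle which of the latter rats received TAA, nor whether they were Wistar Han, as labelled, or Sprague-Dawley, as the design states. Differences between them are therefore given as TAA control against control, with no direction of treatment. TAA control replicates 14 and 15 had closely alike counts, and whether they came from separate rats was not tested. Cells were taken days after the last dose of toxicant, by liver digestion and density gradient, and no sort for a surface marker is stated, so each library can hold RNA of other liver cells.

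Libraries held 25646531 to 46464289 expected counts, and levels are given as CPM, the count relative to a common library total, scaled by the trimmed mean of M-values (TMM). Values of single libraries are listed in the order of their replicate numbers. The summed level of 9 LSEC markers was 13243 to 22805 CPM in the healthy group, 2111 to 2578 in acute injury, 1509 to 2388 in fibrosis and 12487 to 15776 in cirrhosis, so the acute and fibrosis libraries were low in the markers of the labelled cell type. The sum of 4 pan-endothelial genes had medians of 5850, 2280, 1685 and 5720 CPM in the same order. Of these genes, Cdh5 alone had medians of 1433, 1513, 1009 and 1499 CPM. The lower sums of acute injury and fibrosis thus lay mostly in the other genes of the list. The 10 immediate-early genes summed to 40272 to 69397 CPM in healthy rats and to 927 to 3181 CPM over the acute and fibrosis libraries. Hepatocyte markers summed to 1294 to 28843 CPM over the healthy libraries, the widest range of the 4 CCl4 groups. No source names a batch, and stage and any handling that went with it cannot be told apart.

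**Figure D1:**
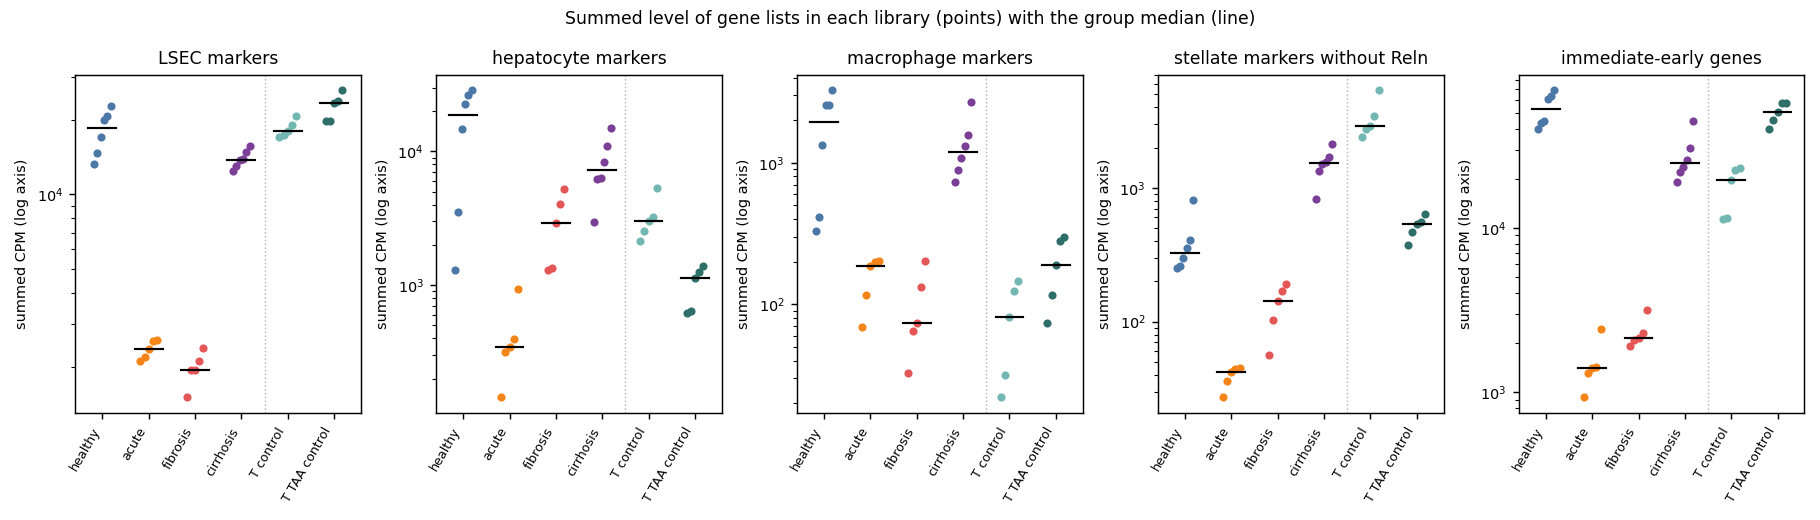
Summed CPM (log axis) of 5 gene lists in each library (points) with the group median (line), for the 4 CCl4 groups left of the dotted line and the 2 groups of the TAA experiment right of it. The LSEC markers of the acute and fibrosis libraries lie between 1509 and 2578 CPM, below every library of the other groups.

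The upstream sequences of 4 members are shown because 2 of them, Tgfbr2 and Tgfbr3, had the most alike levels of any member pair, while Ltbp1 and Ltbp2 had opposite changes early in the disease. Each is the 250 bases before the transcription start in RefSeq (build GRCr8), 5′ to 3′ on the gene's strand. Capitals mark exact matches, on either strand, to TGANTCA (AP-1), TGACGTCA (the cAMP response element), CAGAC (the Smad core), GGGCGG (the GC box), CCAAT or TATAAA.
Tgfbr2, chr8:124761470-124761719, minus strand: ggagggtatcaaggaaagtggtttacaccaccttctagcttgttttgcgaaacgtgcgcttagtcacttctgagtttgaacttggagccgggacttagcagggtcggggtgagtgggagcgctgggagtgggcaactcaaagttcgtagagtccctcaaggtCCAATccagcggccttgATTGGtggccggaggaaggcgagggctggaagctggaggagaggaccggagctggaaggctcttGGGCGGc
Tgfbr3, chr14:2634044-2634293, plus strand: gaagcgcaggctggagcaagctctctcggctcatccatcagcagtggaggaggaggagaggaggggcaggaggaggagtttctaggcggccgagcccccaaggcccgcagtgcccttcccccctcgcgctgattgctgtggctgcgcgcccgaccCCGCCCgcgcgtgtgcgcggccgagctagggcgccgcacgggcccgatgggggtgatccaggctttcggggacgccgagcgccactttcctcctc
Ltbp1, chr6:26177302-26177551, minus strand: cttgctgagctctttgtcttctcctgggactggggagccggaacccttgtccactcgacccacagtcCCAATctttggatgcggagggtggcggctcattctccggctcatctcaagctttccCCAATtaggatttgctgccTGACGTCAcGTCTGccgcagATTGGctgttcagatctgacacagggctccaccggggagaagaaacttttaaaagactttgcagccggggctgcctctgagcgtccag
Ltbp2, chr6:110257299-110257548, minus strand: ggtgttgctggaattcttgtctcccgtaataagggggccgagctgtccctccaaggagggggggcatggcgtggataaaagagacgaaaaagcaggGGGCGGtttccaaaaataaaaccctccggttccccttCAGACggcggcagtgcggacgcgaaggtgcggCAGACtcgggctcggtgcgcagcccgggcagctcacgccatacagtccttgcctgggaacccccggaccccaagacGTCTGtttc
The Tgfbr2 window held 1 GC box and 2 CCAAT matches, and the Tgfbr3 window held 1 GC box and no CCAAT. Ltbp1 was the only member of the 10 with the cAMP response element, which 1.59% of 33469 RefSeq promoter windows of the same length held. The Smad core was present 3 times in the Ltbp2 window and 1 time in that of Ltbp1, in no other member, and in 42.9% of all windows. A GC box was present in 6 of 10 members (30.5% of all windows) and CCAAT in 4 (34%). No member held the AP-1 letters (6.34% of windows) or TATAAA (12.9%).

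The 10 members moved in both directions, and the receptors, ligands and binding proteins each split. A gene was called at p under 0.05 and a fold change above 1.5 in a limma-voom fit over all genes, and Benjamini-Hochberg adjusted p-values over all genes tested are given beside it. In acute injury 10 of 10 members were called against healthy LSECs, 4 higher and 6 lower. Of the 14317 genes tested, 74.1% were called, 35.8% higher and 38.3% lower. In fibrosis 9 members were called, 4 higher and 5 lower, where 71.2% of genes were called, 35.8% higher and 35.4% lower. In cirrhosis 6 members were called, 5 higher and 1 lower, where 54.5% of genes were called, 28.8% higher and 25.7% lower. The same members were called with an adjusted p under 0.05 (73.4%, 70.2% and 51.8% of genes), so the number called in acute injury and fibrosis has to be read against a background in which most genes differed. The median change of the members was a log2 fold change of -2.11 in acute injury, -0.61 in fibrosis and 0.77 in cirrhosis, beside -0.09, -0.03 and 0.07 over all genes tested. Because the members split, this median does not stand for a shared direction. The median size of the change, its sign left out, was 2.38, 2.38 and 0.995, beside 1.42, 1.30 and 0.777 over all genes. Healthy and acute libraries did not overlap for 8 members (59.8% of genes), healthy and fibrosis libraries for 8 (58.5%), and healthy and cirrhosis libraries for 2 (27.2%).

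**Figure D2:**
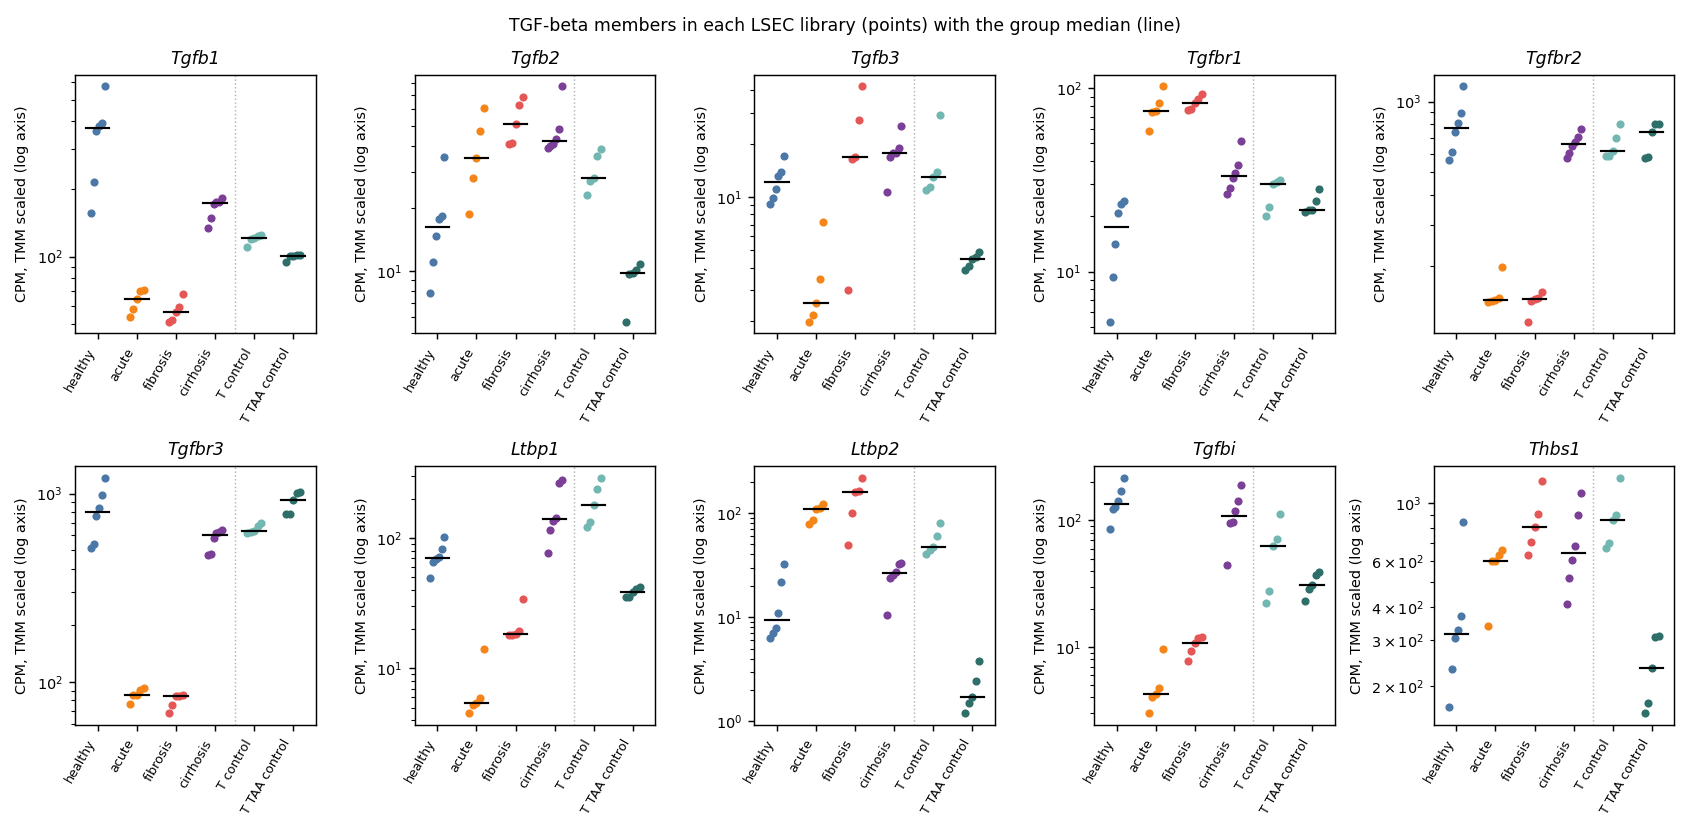
TMM-scaled CPM (log axis) of the 10 members in each library (points) with the group median (line), for the 4 CCl4 groups left of the dotted line and the 2 groups of the TAA experiment right of it. Tgfb1, Tgfbr2, Tgfbr3 and Tgfbi are lower in every acute and fibrosis library than in any healthy or cirrhosis library, and Tgfbr1 is higher in them than in any other CCl4 library.

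Among the ligands, Tgfb1 was lower and Tgfb2 higher in the LSEC libraries of each CCl4-treated group than in healthy ones. Tgfb3 was lower in acute injury. Tgfb1, the most studied profibrotic isoform, stood in healthy libraries at a lowest, median and highest CPM of 157, 373 and 573. Its CPM was 71.3, 58.1, 53.7, 70 and 65 in the acute libraries and 59.8, 51.3, 68, 56.6 and 51.9 in the fibrosis libraries. In cirrhosis its lowest, median and highest CPM were 134, 173 and 182. Acute and fibrosis libraries were all below the healthy range, while cirrhosis libraries lay around its lower end. Against healthy LSECs Tgfb1 was 4.87-fold lower in acute injury (log2 fold change -2.28, standard error 0.279, limma-voom adjusted p = 1.16e-05). It was 5.24-fold lower in fibrosis (adjusted p = 1.01e-05) and 1.96-fold lower in cirrhosis (adjusted p = 0.0077). From fibrosis to cirrhosis it rose 2.78-fold (adjusted p = 8.46e-08), and acute injury and fibrosis differed by a log2 value of -0.06 (95% interval -0.28 to 0.16). The order was thus healthy, cirrhosis, then acute injury and fibrosis, whose difference did not pass the test. In these bulk libraries, fewer cells that express a gene and less of its RNA per cell cannot be told apart.

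Tgfb2 encodes the isoform that depends most on the co-receptor Tgfbr3 for binding. Its lowest, median and highest CPM were 7.83, 16.2 and 35.2 in healthy rats and 39.0, 42.0 and 77.5 in cirrhosis. The acute libraries held 18.9, 28.1, 47, 34.8 and 61.2 CPM and the fibrosis libraries 51, 69.1, 41.4, 63.2 and 41 CPM. Fibrosis and cirrhosis libraries were all above the healthy range, and 3 of the 5 acute libraries lay within it. The increase over healthy LSECs was 2.29-fold in acute injury (adjusted p = 0.0137), 3.49-fold in fibrosis (adjusted p = 0.000326) and 2.95-fold in cirrhosis (adjusted p = 0.00106). The step from acute injury to fibrosis was 1.59-fold with an unadjusted p of 0.0385 and an adjusted p of 0.118 in limma-voom. Cirrhosis against fibrosis did not pass (log2 fold change -0.19, 95% interval -0.61 to 0.23).

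Tgfb3, the remaining isoform, varied most between libraries in fibrosis. Healthy libraries held 9.12 to 17 CPM and cirrhosis libraries 10.6 to 25.3 CPM, while the acute libraries held 1.98, 2.15, 2.51, 3.46 and 7.21. The fibrosis libraries held 16.8, 42.2, 16.4, 27.2 and 2.98 CPM, so replicate 17 lay among the acute libraries and replicates 13 and 16 above every healthy library. Tgfb3 fell 3.85-fold in acute injury (adjusted p = 0.000126) and was 5.60-fold higher in cirrhosis than in acute injury (adjusted p = 1.45e-05). Fibrosis against healthy LSECs was not called (log2 fold change 0.46, 95% interval -0.75 to 1.66, adjusted p = 0.467), but without replicate 17 the difference was 1.07 with an adjusted p of 0.0074. Cirrhosis against healthy was 1.43-fold, under the fold threshold, with an adjusted p of 0.0551. It was called without cirrhosis replicate 5 (log2 fold change 0.66, adjusted p = 0.0163), without healthy replicate 1 (0.61, adjusted p = 0.0336) and when libraries were scaled by size alone (0.86, adjusted p = 0.0051).

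The receptors split between the signaling pair. Tgfbr1, the type I receptor that carries the signal to the Smads, was above the healthy level at every stage, least so in cirrhosis. Tgfbr2, the type II receptor that binds the ligand, fell in acute injury and fibrosis and was higher again in cirrhosis. Tgfbr3 (betaglycan), the co-receptor that presents ligand to the type II receptor, followed Tgfbr2. Tgfbr1 stood at 75.3, 73.7, 83.4, 58.7 and 102 CPM in acute injury and 87.3, 92.6, 83.6, 76.5 and 77.4 CPM in fibrosis. Its lowest, median and highest CPM were 5.33, 17.5 and 24.1 in healthy rats and 26.5, 33.3 and 51.6 in cirrhosis. The healthy libraries overlapped with none of the 3 diseased groups. The increase was 5.56-fold in acute injury (log2 fold change 2.47, standard error 0.354, adjusted p = 4.24e-05), 6.15-fold in fibrosis (adjusted p = 2.25e-05) and 2.38-fold in cirrhosis (adjusted p = 0.00676). Between fibrosis and cirrhosis Tgfbr1 fell 2.48-fold (adjusted p = 6.72e-06). Its expected counts were not whole numbers in 100% of libraries, which for the other 9 members was so in 0%, as happens when the counting shares reads with another locus, so its level is less certain than theirs.

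Tgfbr2 had a lowest, median and highest CPM of 562, 775 and 1161 in healthy rats and of 577, 662 and 765 in cirrhosis. The acute libraries held 141, 143, 147, 198 and 141 CPM and the fibrosis libraries 142, 156, 145, 146 and 116. All 10 were below every healthy and every cirrhosis library. Tgfbr2 fell 4.89-fold in acute injury (log2 fold change -2.29, standard error 0.191, adjusted p = 4.61e-07) and 5.18-fold in fibrosis (adjusted p = 3.11e-07), and it was 4.59-fold higher in cirrhosis than in fibrosis (adjusted p = 1.94e-09). Cirrhosis against healthy LSECs was not called, at a log2 fold change of -0.23 with a 95% interval from -0.60 to 0.14.

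Tgfbr3 ranged from 517 to 1217 CPM in healthy rats, with a median of 799, and from 473 to 639 CPM in cirrhosis, with a median of 600.4. Acute libraries held 84.7, 84.9, 93, 90.9 and 76.2 CPM and fibrosis libraries 84.1, 85.6, 84.4, 75 and 68.4 CPM. The acute and fibrosis values were close to each other and far below both other groups. The fall was 8.69-fold in acute injury (adjusted p = 9.45e-08) and 9.16-fold in fibrosis (adjusted p = 1.12e-07). From fibrosis to cirrhosis Tgfbr3 rose 6.96-fold (adjusted p = 4.21e-10). In cirrhosis it was 1.37-fold lower than in healthy LSECs, with an unadjusted p of 0.0467 and an adjusted p of 0.0752, under the fold threshold. Over the 22 CCl4 libraries the log2 CPM of Tgfbr2 and Tgfbr3 had a Pearson r of 0.992, and each was the other's closest match among 8598 genes. Many genes followed the same split of groups: 788 had an r over 0.9 with Tgfbr2 and 860 with Tgfbr3, so this likeness is a description of the groups, with no test.

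The reads of Tgfbr1 relative to those of Tgfbr2 can be compared between libraries with no scaling factor. This ratio and the others below were chosen after the values of their genes were seen, so they are given without a test. It was 0.00869 to 0.0372 in healthy rats, 0.297 to 0.724 in acute injury, 0.525 to 0.667 in fibrosis and 0.0376 to 0.0895 in cirrhosis. The receptor read ratio was therefore higher in every diseased library than in any healthy one, narrowly so in cirrhosis. The ratio of Tgfb2 to Tgfb1 reads was 0.0192 to 0.224 in healthy rats, 0.265 to 0.941 in acute injury, 0.609 to 1.35 in fibrosis and 0.215 to 0.520 in cirrhosis. Acute and fibrosis libraries lay above the healthy range, and the lowest cirrhosis library lay within it.

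**Figure D3:**
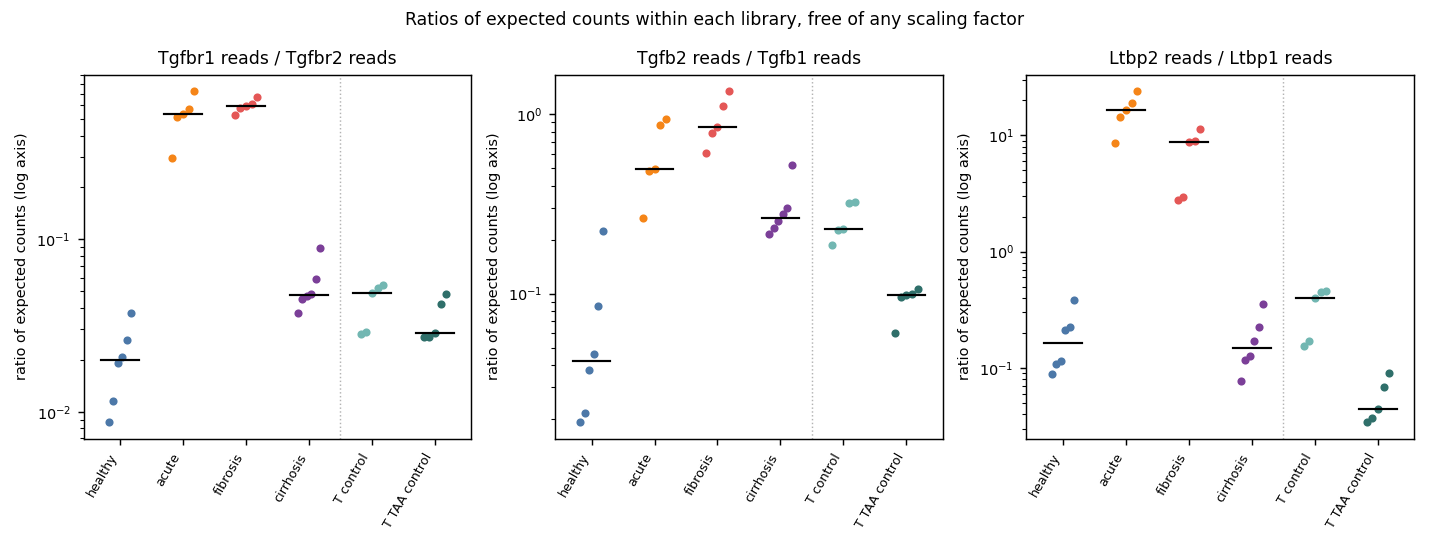
Ratio of expected counts of 2 genes within each library (log axis, points) with the group median (line), for Tgfbr1 over Tgfbr2, Tgfb2 over Tgfb1 and Ltbp2 over Ltbp1. The Tgfbr1 over Tgfbr2 ratio is above 0.29 in every acute and fibrosis library and below 0.09 in every other library.

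The latent TGF-beta binding proteins had opposite changes in early disease. Ltbp1, which tethers the latent ligand to the matrix, fell in acute injury and fibrosis and was above the healthy level in cirrhosis. Ltbp2, a relative that binds fibrillin microfibrils and not the latent ligand, rose in acute injury and fibrosis. In cirrhosis Ltbp2 was lower than in fibrosis, and the cirrhosis libraries overlapped with the healthy range. The Ltbp1 level was 5.45, 5.91, 5.22, 4.56 and 14.1 CPM in acute injury and 18, 34, 18.1, 18.4 and 19.4 CPM in fibrosis. In healthy rats its lowest, median and highest CPM were 49.1, 69.8 and 102, and in cirrhosis 76.5, 138 and 277. Acute libraries were all below the fibrosis libraries, these were below the healthy libraries, and the cirrhosis libraries began within the healthy range. Ltbp1 fell 10.9-fold in acute injury (log2 fold change -3.45, standard error 0.277, adjusted p = 3.27e-07) and 3.21-fold in fibrosis (adjusted p = 1.8e-05), and was 2.13-fold higher in cirrhosis (adjusted p = 0.00752). Fibrosis was 3.52-fold above acute injury (adjusted p = 0.00459) and cirrhosis 7.10-fold above fibrosis (adjusted p = 7.28e-06). Cirrhosis exceeded acute injury 23.7-fold (log2 fold change 4.57, standard error 0.442, adjusted p = 9.42e-07).

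Ltbp2 had a lowest, median and highest CPM of 6.36, 9.42 and 32.1 in healthy rats and of 10.4, 26.5 and 33.2 in cirrhosis. Acute libraries held 78, 113, 85.6, 109 and 121 CPM and fibrosis libraries 49.8, 99.6, 159.9, 161 and 219 CPM. Every acute and fibrosis library was above every healthy and cirrhosis library, with a spread in fibrosis from replicate 12 at the low end to replicate 17 at the high end. Ltbp2 rose 8.97-fold in acute injury (log2 fold change 3.17, standard error 0.350, adjusted p = 5.03e-06) and 11.3-fold in fibrosis (log2 fold change 3.5, adjusted p = 2.89e-05), and fell 5.27-fold from fibrosis to cirrhosis (adjusted p = 9.94e-05). The 2.08-fold difference of cirrhosis from healthy LSECs (adjusted p = 0.0388) was lost in edgeR's quasi-likelihood test (adjusted p = 0.101) and without healthy replicate 2, 5 or 6. The ratio of Ltbp2 to Ltbp1 reads ran from 0.0895 to 0.388 in healthy rats and from 0.0769 to 0.358 in cirrhosis. It ran from 8.62 to 24.0 in acute injury and from 2.77 to 11.3 in fibrosis, above all libraries of the other groups.

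Tgfbi, a secreted matrix protein named for its induction by TGF-beta, had the largest fall of the 10 members. It stood at 4.76, 3.01, 4.25, 4.02 and 9.72 CPM in acute injury and 9.33, 10.8, 11.7, 11.9 and 7.82 CPM in fibrosis. Healthy libraries had a lowest, median and highest CPM of 85.7, 135 and 218, and cirrhosis libraries of 44.3, 108 and 189. Acute and fibrosis libraries were all far below the other 2 groups, which overlapped. The fall was 28.6-fold in acute injury (log2 fold change -4.84, standard error 0.324, adjusted p = 7.27e-08) and 12.8-fold in fibrosis (adjusted p = 1.01e-07). Fibrosis was 2.31-fold above acute injury (adjusted p = 0.0107), and cirrhosis was above fibrosis by a log2 value of 3.32 (standard error 0.355, adjusted p = 3.27e-06). Cirrhosis against healthy LSECs was not called (log2 fold change -0.41, 95% interval -1.09 to 0.26).

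Thbs1 encodes thrombospondin, a matrix glycoprotein that can release TGF-beta from its latent complex and that platelets also carry. Its CPM was 338, 631, 602, 662 and 601 in acute injury and 909.9, 1214, 808, 709.6 and 633 in fibrosis. The lowest, median and highest CPM were 167, 317 and 847 in healthy rats and 410 (lowest), 644 and 1089 in cirrhosis. Healthy replicate 3 was far above the other 5 healthy libraries, and acute replicate 1 was the only acute library within the range of the other 5 healthy ones. Thbs1 was 2.71-fold higher in fibrosis (adjusted p = 0.00198) and 2.03-fold higher in cirrhosis (adjusted p = 0.0244) than in healthy LSECs. The 1.75-fold difference in acute injury (adjusted p = 0.0455) was lost in edgeR's quasi-likelihood test (adjusted p = 0.101 at a log2 difference of 0.66) and without healthy replicate 2 or 5 or acute replicate 2, 3, 4 or 8. Against only healthy replicates 3 and 5, which were low in hepatocyte markers, none of the 3 differences was called (limma-voom adjusted p = 0.33, 0.0696 and 0.363). These 2 libraries include replicate 3, the highest healthy library for Thbs1, so that library and hepatocyte content cannot be told apart here. Platelet markers summed to 12.6 to 53.4 CPM in healthy rats, 4.94 to 10 in acute injury, 6.4 to 12.6 in fibrosis and 11 to 37.3 in cirrhosis. Their part in the Thbs1 differences was not tested.

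**Figure D4:**
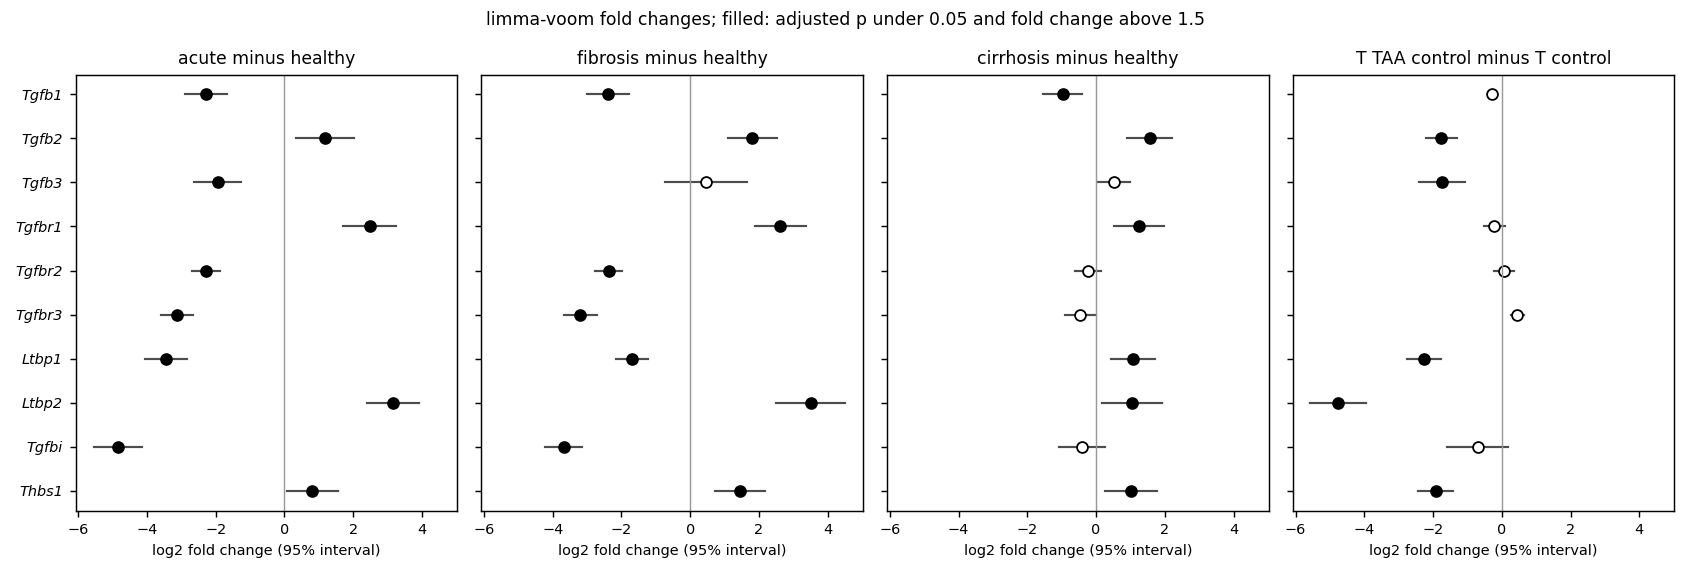
Log2 fold change (points) with its 95% interval (lines) of each member in 4 comparisons by limma-voom. Filled points have an adjusted p under 0.05 and a fold change above 1.5: 10 members in acute injury, 9 in fibrosis, 6 in cirrhosis and 5 in the TAA experiment.

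Fibrosis and acute injury were closer to each other than either was to the healthy group over all genes. Ltbp1, Tgfbi, Tgfb3, Thbs1 and Tgfb2 were called higher in fibrosis and none lower, 5 of 10 where 15.7% of genes were called, 14.3% higher and 1.39% lower. With an adjusted p under 0.05 the calls were Ltbp1, Tgfbi and Thbs1, 3 of 10 where 11% of genes passed. Thbs1 was 1.60-fold higher (adjusted p = 0.0469), and Tgfb3 5.43-fold higher with a standard error of 0.828 on the log2 scale (adjusted p = 0.0596). Without acute replicate 1, or without fibrosis replicate 13, 3 members were called, where 2037 and 2101 genes were called in all. Tgfb1, Tgfbr1, Tgfbr2, Tgfbr3 and Ltbp2 had intervals that included 0, the widest that of Ltbp2 (95% interval -0.35 to 1.12).

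From fibrosis to cirrhosis 7 members were called, 5 higher and 2 lower, where 64.2% of genes were called (34.5% higher and 29.7% lower, 63.8% in all with an adjusted p under 0.05). Tgfb1, Tgfbr2, Tgfbr3, Ltbp1 and Tgfbi were higher in cirrhosis, Tgfbr1 and Ltbp2 lower, and the libraries of the 2 stages did not overlap for any of these 7 (63.2% of genes did not overlap). Against acute injury 8 members were called in cirrhosis, where 69.7% of genes were called (37.8% higher and 31.9% lower, 69.3% in all with an adjusted p under 0.05). Tgfb1, Tgfb3, Tgfbr2, Tgfbr3, Ltbp1 and Tgfbi were higher and Tgfbr1 and Ltbp2 lower, and the libraries of these stages did not overlap for any of the 8 (65.6% of genes did not overlap). Tgfb2 and Thbs1 were called in neither: cirrhosis minus fibrosis was -0.36 for Thbs1 on the log2 scale (95% interval -0.91 to 0.19), and cirrhosis minus acute injury was 0.40 for Tgfb2 (95% interval -0.20 to 1). Both comparisons use the same cirrhosis libraries.

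In the acute and fibrosis libraries other lists also differed from the healthy libraries, some lower and some higher. Macrophage markers summed to 328 to 3271 CPM in healthy rats, 69.5 to 202 in acute injury, 32.6 to 203 in fibrosis and 735 to 2699.9 in cirrhosis, with 1 of 9 genes at 0 in all acute and in all fibrosis libraries. The 10 stellate cell markers without Reln, which alone had a median of 1671 CPM in acute injury, summed to 252 to 817 CPM in healthy rats, 27.1 to 45.1 in acute injury, 56.4 to 190.0 in fibrosis and 822 to 2113 in cirrhosis. Leaving out Reln was decided after its values were seen. With Reln the 11 markers summed to 374 to 997, 1362 to 2180.2, 1306 to 1765 and 963 to 2353 CPM. Lymphocyte markers had medians of 42.5, 0.9, 2.1 and 28.1 CPM, neutrophil markers 11.1, 0.4, 0.6 and 10 CPM and mesothelial markers 17.9, 1.0, 3.5 and 7.6 CPM in the same order. Cholangiocyte markers had medians of 7.3, 90.3, 19.3 and 16.8 CPM and proliferation genes 11.1, 7.4, 9.7 and 27.4 CPM. Hepatocyte markers had medians of 18742, 346, 2908 and 7308 CPM. The part of these cells in the changes of the members was not tested.

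Around the members, 50 other genes of the pathway were measured, grouped by role. Against healthy LSECs 13 were called higher and 27 lower of 48 tested in acute injury, 17 and 25 of 49 in fibrosis, and 21 and 11 of 50 in cirrhosis. Over all genes 35.8% were higher and 38.3% lower in acute injury, 35.8% and 35.4% in fibrosis, and 28.8% and 25.7% in cirrhosis. The median log2 fold changes of the pathway genes were -1.11, -0.70 and 0.33, beside -0.09, -0.03 and 0.07 over all genes. Genes that keep TGF-beta latent or store it were lower in acute injury (6 of 7, none higher), in fibrosis (7 of 7) and in cirrhosis (6 of 7, Fbn1 higher). Emilin1, a microfibril protein that holds back the processing of the TGF-beta precursor, had a mean of 1058 CPM in healthy rats, 12.9 in acute injury (log2 fold change -6.33, adjusted p = 2.26e-09), 18.6 in fibrosis (-5.70) and 377 in cirrhosis (-1.47, adjusted p = 0.000163). Ltbp3 fell by 4.92 in acute injury and Ltbp4 fell by 4.54 in fibrosis on the log2 scale. These are other latent TGF-beta binding proteins, and they shared the direction of Ltbp1 and not of Ltbp2 at those stages.

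Of 4 co-receptors and surface modulators, 3 were lower at each stage, in cirrhosis 2 of them with an adjusted p under 0.05. Over all genes 38.3%, 35.4% and 25.7% were lower and 35.8%, 35.8% and 28.8% higher in acute injury, fibrosis and cirrhosis. The counts by role are to be read beside these shares. Eng (endoglin), an endothelial co-receptor, had a mean of 6939 CPM in healthy rats, 554 in acute injury, 601 in fibrosis and 2318 in cirrhosis (log2 fold change -1.55, adjusted p = 0.000101 in cirrhosis). Of the activators, Itgav, the integrin alpha-v chain that binds latent TGF-beta, rose by 3.78 in acute injury and 4.74 in fibrosis on the log2 scale. At these stages 6 and 5 of the 8 activators tested fell. In cirrhosis 5 of 9 were higher and 1 lower, the latter not with an adjusted p under 0.05. The proteoglycans that trap the ligand had 0 higher and 2 lower of 3 in acute injury, 1 and 2 in fibrosis, and 2 and 0 in cirrhosis. The 1 higher in fibrosis did not have an adjusted p under 0.05. Of the 6 Smads, 4 were higher and 2 lower in acute injury, and 3 and 2 in fibrosis. The feedback inhibitors were 4 higher and 3 lower of 9 in acute injury and 5 and 3 in fibrosis. Smad6, an inhibitory Smad, fell by 4.32 in fibrosis on the log2 scale (adjusted p = 2.19e-08). In cirrhosis 1 Smad was higher and none lower, and 4 feedback inhibitors were higher, led by Skil (log2 fold change 2.10, adjusted p = 0.000181), and Smad6 was lower (-1.36, adjusted p = 0.00024).

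The target genes held both directions in early disease. In acute injury 4 were higher and 5 lower of 11, in fibrosis 7 and 3 of 12, and in cirrhosis 8 and none of 12, to be read against the same shares over all genes. Ctgf, a matricellular growth factor, rose by 3.60 in acute injury, and Tagln, an actin-binding protein of contractile cells, by 3.95 in fibrosis on the log2 scale. Col3a1, a fibrillar collagen, fell by 5.54 in acute injury and was higher in cirrhosis (log2 fold change 2.08, adjusted p = 0.00057). Col3a1 is also in the stellate marker list and is a large part of its sum, with a mean of 228 CPM in healthy rats and 929 CPM in cirrhosis.

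**Figure D5:**
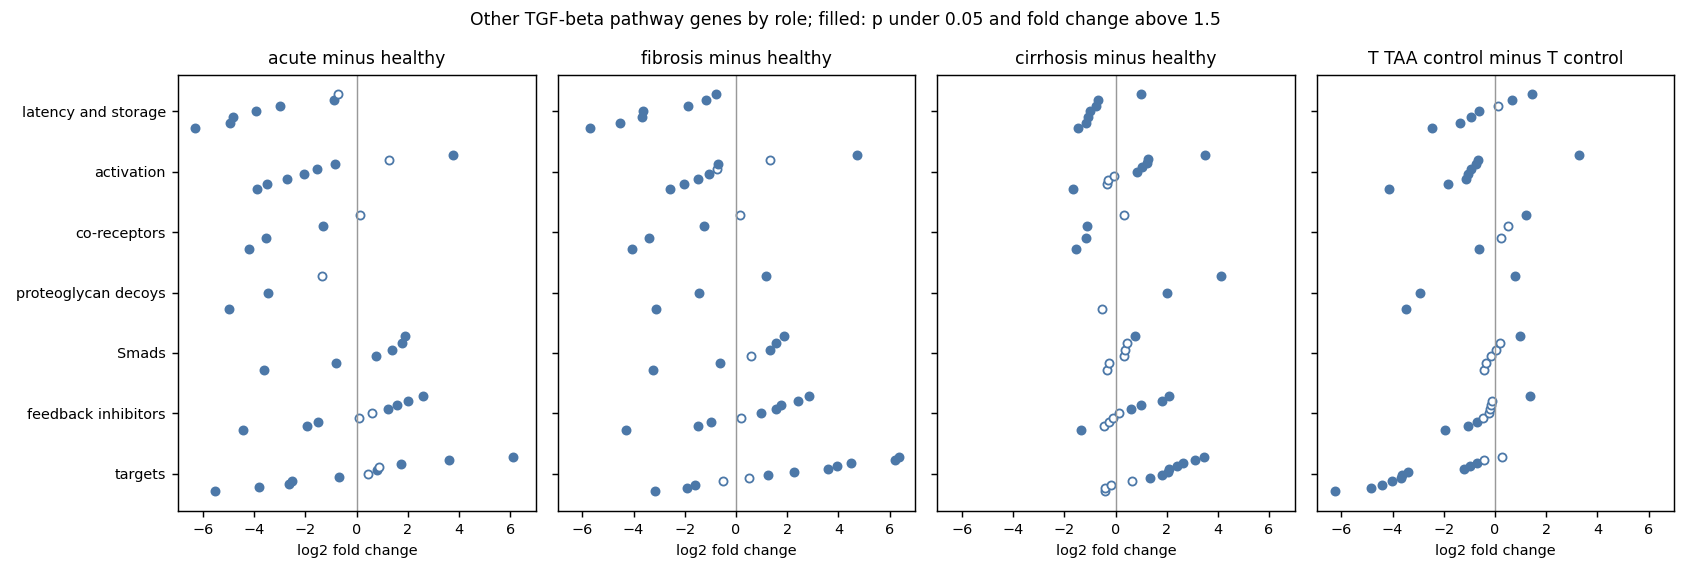
Log2 fold change of the other pathway genes by role in 4 comparisons (limma-voom), each point a gene. Filled points have p under 0.05 and a fold change above 1.5. Latency and storage genes lie left of 0 in acute injury and fibrosis, while 8 of 12 targets are filled and right of 0 in cirrhosis and 10 of 12 are filled and left of 0 in the TAA experiment.

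Between the stages, 20 pathway genes were called higher and 1 lower of 48 in fibrosis against acute injury, with Col1a1 (4.98), Tagln (3.54) and Col3a1 (2.42) leading on the log2 scale, where 14.3% of all genes were higher and 1.39% lower. In cirrhosis against fibrosis 25 were higher and 13 lower of 50 (34.5% and 29.7% of all genes). The highest were Col3a1 (5.31), Emilin1 (4.29) and Ltbp4 (3.59), and the lowest included Ctgf (-3.69) and Itgav (-3.63). Against acute injury 30 were higher and 9 lower (37.8% and 31.9% of all genes), with Col3a1 (7.66), Bgn (5.52) and Fbn1 (4.96) at one end and Ctgf (-3.73) and Mmp9 (-2.90) at the other.

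In the TAA experiment 5 members were called, all lower in the group labelled TAA control than in the group labelled control (29.4% of 14376 genes called, 13.5% higher and 15.9% lower, 27.6% with an adjusted p under 0.05). Ltbp2 differed most, with 44.5, 80.9, 47.5, 40.3 and 60.8 CPM in control libraries and 2.43, 3.77, 1.2, 1.5 and 1.71 CPM in TAA control libraries. These groups were far apart, with TAA control 27.0-fold lower (log2 fold change -4.76, standard error 0.371, adjusted p = 1.35e-05). Ltbp1 held 289, 179, 120.1, 238 and 132 CPM in control and 35.4, 42, 35.3, 40.8 and 38.4 CPM in TAA control libraries, 4.79-fold lower (adjusted p = 3.24e-05). In contrast to the early CCl4 stages, both binding proteins differed in the same direction here, and the ratio of Ltbp2 to Ltbp1 reads was 0.154 to 0.461 in control and 0.0341 to 0.0898 in TAA control libraries.

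Tgfb2 was 3.39-fold lower in TAA control libraries, with 35.6, 38.6, 28.2, 27.2 and 23.2 against 5.69, 9.81, 9.67, 10.1 and 10.8 CPM (adjusted p = 9.14e-05). Tgfb3 was 3.34-fold lower, with 13.1, 29, 13.8, 11 and 11.4 against 4.89, 4.58, 3.9, 4.1 and 4.49 CPM (adjusted p = 0.000924). Thbs1 was 3.78-fold lower, with 862, 676, 1248, 704 and 898 against 234, 173, 158, 312 and 308 CPM (adjusted p = 0.000121). The 2 groups did not overlap for any of these 5 members, nor for Tgfb1 and Tgfbr3, 7 members in all where 35.6% of genes did not overlap.

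Tgfb1 and Tgfbr3 passed the test but stayed under the fold threshold. Tgfb1 held 110.5 to 124 CPM in control and 94.7 to 101 CPM in TAA control libraries (log2 fold change -0.28, adjusted p = 0.00199). Tgfbr3 held 617 to 695 and 777 to 1017 CPM (0.45, adjusted p = 0.00189). Tgfbr1 and Tgfbr2 did not pass, at -0.22 (95% interval -0.53 to 0.09) and 0.06 (-0.22 to 0.35), and the ratio of their reads was 0.0282 to 0.0540 in control and 0.0270 to 0.0485 in TAA control libraries. Tgfbi was not called in limma-voom (log2 fold change -0.70, 95% interval -1.59 to 0.19) and was called lower, by p under 0.05, in 4 alternatives. These were DESeq2 (-0.93, adjusted p = 0.0263), edgeR's test (-0.92, adjusted p = 0.072), and limma-voom without control replicate 1 (-0.91, adjusted p = 0.0853) or 4 (-0.99, adjusted p = 0.041).

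Of the other pathway genes 7 were higher and 27 lower of 49 in TAA control libraries (13.5% and 15.9% of all genes), with 10 of 12 targets lower and none higher. Col1a1 (log2 fold change -4.83) and Mmp2 (-4.15) were among the lowest, and Nrros (1.45), Smad6 (1.35) and Cd109 (1.23) highest. The stellate markers without Reln summed to 2400 to 5393 CPM in control and 376 to 634 CPM in TAA control libraries. Of these markers, Col1a1 and Col3a1 are also among the targets. Col3a1 alone had a mean of 1986 CPM in control and 150 CPM in TAA control libraries, so the sum and the targets are not separate observations. The immediate-early genes summed to 11404 to 23138 and 39819 to 57966 CPM. LSEC markers summed to 17142 to 20734 and 19745 to 26489 CPM, hepatocyte markers to 2119.7 to 5291 and 615 to 1398 CPM, macrophage markers to 22 to 146 and 74.0 to 297 CPM, and platelet markers to 12.0 to 27.0 and 6.73 to 23.2 CPM. The part of these cells in the differences was not tested.

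The gene most like each member over the 22 CCl4 libraries, by Pearson r of log2 CPM among 8598 genes, is given as a description. It was Cyba for Tgfb1 (r = 0.991), Klf6 for Tgfb2 (0.886), Tln2 for Tgfb3 (0.868) and Rps6ka5 for Tgfbr1 (0.987). For Ltbp1 it was Fbn1 (0.977), for Ltbp2 Csf3 (0.950), for Tgfbi Nr4a1 (0.982) and for Thbs1 Tes (0.819). The points share the 4 groups, and the number of genes with an r over 0.9 was 968 for Tgfb1, 1205 for Tgfbr1, 725 for Tgfbi, 137 for Ltbp1, 39 for Ltbp2 and 0 for Tgfb2, Tgfb3 and Thbs1.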

How the data were processed

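RNA of rat LSECs was sequenced as 32 strand-specific poly(A) libraries. The authors deposited expected counts per gene, estimated by RSEM after STAR alignment to Rnor_6.0. The submitters' notes also list FastQC, Trim Galore and limma, and versions are not given in the sources used here. Expected counts are not normalized. They were rounded, filtered by expression (filterByExpr), scaled by TMM and fitted with limma-voom (limma 3.58.1, edgeR 4.0.16, R 4.3.3) for each pair of groups over all genes. TMM, limma-voom and the call rule, p under 0.05 with a fold change above 1.5, follow the study's methods, and the rounding, the filter and the separate fits were chosen here. Benjamini-Hochberg values were added. CPM is given on the TMM scale, and log2 CPM used a pseudocount of 0.5. The filter kept 13931 to 15186 of 32623 genes, all 10 members among them.

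The alternatives were edgeR's quasi-likelihood test, DESeq2 1.42.0, other scaling factors, no low-count filter, 1 fit over the CCl4 groups, a replicate block, other call rules, the mean of TAA control replicates 14 and 15, and leaving out each library. The study describes independent isolations, and replicates were taken as separate rats. Replicate numbers were checked for pairing, and correlations of deviations between libraries of the same number ran from -0.24 to 0.29. The same number was the best match only for replicates 2 and 4 of acute and healthy libraries (0.03 and 0.19). Samples were therefore not paired in the main fits. TAA control replicates 14 and 15 had the most alike counts of any pair in a group (chi-square per degree of freedom 3.05, the next pair 25.2), above sampling noise, and were kept apart. Whether they came from separate rats was not tested. Using their mean in place of both changed no member's call. The description field numbers some TAA control libraries differently from the titles, and the titles were used. Scripts were tested on simulated counts.

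The members, pathway list and marker lists were chosen with earlier results of these data known. The text names all members, per comparison the 3 highest and 3 lowest pathway genes by log2 fold change (adjusted p under 0.05, mean log2 CPM of at least 3), and the gene most like each member. One pathway gene that this rule names is not reported here. The gene Col1a2 and the marker Pecam1 were not analysed here. Promoter sequence came from RefSeq (GRCr8), which is not the build of the counts, and 10 of 10 members matched by symbol.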

Additional observations from a re-analysis of the deposited data

Results flagged for a closer look

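Of 60 sets of values, 1 per member and group, 9 held a library far from the others. About 3 would be expected for independent sets. These sets share libraries and genes of alike levels, so the 9 are a description, and an excess over chance was not tested. The measure is the gap to the nearest library divided by the range of the group, both on the log2 CPM scale, while the levels below are in CPM.

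Ltbp1 accounted for 2 of them: acute replicate 8 at 14.1 CPM beside 4.56 to 5.91 in the others (0.776), and fibrosis replicate 13 at 34.0 CPM beside 18 to 19.4 (0.882). Acute replicate 8 also had the highest Tgfb3 and Tgfbi of its group, and fibrosis replicate 13 the highest Tgfb3. Tgfbr2 was at 198 CPM in acute replicate 4 beside 141 to 147 (0.877), and Thbs1 at 338 CPM in acute replicate 1 beside 601 to 662 (0.855). In cirrhosis, Tgfb2 was at 77.5 CPM in replicate 2 beside 39.0 to 48.4 (0.685), and Ltbp2 at 10.4 CPM in replicate 5 beside 24.0 to 33.2 (0.717).

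In the TAA experiment, TAA control replicate 10 was low for Tgfb1, at 94.7 CPM beside 100.3 to 101 (0.84), and for Tgfb2, at 5.69 CPM beside 9.67 to 10.8 (0.829). Control replicate 2 had 29.0 CPM of Tgfb3 beside 11 to 13.8 (0.769).

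Ltbp1 differed in direction between stages against the same healthy libraries, with a log2 fold change of -3.45 in acute injury and 1.09 in cirrhosis. The direct comparison of cirrhosis with acute injury gave a difference of 4.57 (limma-voom adjusted p = 9.42e-07), higher in 6 of 6 cirrhosis libraries.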

How the results depend on the processing

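Over the alternatives the members' log2 fold changes gave 1380 values. Of these, 1335 stayed called or stayed not called, 31 lost the call, 14 gained one and 0 of those called reversed. Differences not called in either fit could change sign, as for Tgfbr2 in cirrhosis against healthy LSECs (-0.50 to 0.12 over the alternatives). The count of members called in fibrosis against acute injury, 5 in the report, was 3 with an adjusted p and 3 in 1 fit over the CCl4 groups. It was 3 to 5 when 1 library was left out. The counts over all genes were 1529, 2030 and 2037 to 2595 in the same order. Over all genes, 4968 were called in that comparison with no fold threshold and 3358 with no low-count filter, beside 2189, and 8142 in the TAA experiment with no fold threshold, beside 4228. Leaving out 1 library gave 9 to 10 members in acute injury, 9 to 10 in fibrosis and 5 to 7 in cirrhosis against healthy LSECs. It gave 7 from fibrosis to cirrhosis, 8 in cirrhosis against acute injury and 5 to 6 in the TAA experiment. Over all genes these fits called 10254 to 10722, 9956 to 10481, 7467 to 8757, 9383 to 9912, 10110 to 10650 and 3986 to 4436 in the same order.

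The cause of these changes was not tested. Scaling by library size alone shifted the median log2 fold change of all genes against healthy LSECs by 0.41 in acute injury, 0.40 in fibrosis and 0.35 in cirrhosis, and cirrhosis against fibrosis by -0.11. With a replicate block 9 members were called in acute injury (10978 over all genes), 6 in cirrhosis (7948) and 8 between these stages (10091). The call lost was Thbs1 in acute injury (log2 fold change 0.52, adjusted p = 0.107). An alternative chosen after seeing the data kept only healthy replicates 3 and 5, whose hepatocyte markers summed to under 10000 CPM. It called 9, 8 and 4 members in acute injury, fibrosis and cirrhosis. Over all genes it called 10122, 9998 and 7274, beside 10611, 10351 and 8058 with all healthy libraries. In cirrhosis Ltbp1 (log2 fold change 0.97, adjusted p = 0.0955), Ltbp2 and Thbs1 were lost and Tgfbr3 was called lower (-0.85, adjusted p = 0.00759). That leaves 2 healthy rats, and replicate 3 had the highest Thbs1 of the healthy group.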
